A study of Mus musculus with 46 samples.

Results

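The genes described here are 38 lysosomal genes in microglia, the macrophages that live in brain tissue, of the mouse, chosen from a given list of symbols out of 54134 gene symbols in the count table. They comprise 10 cysteine, serine and aspartic proteases (the cathepsins and legumain), the protease inhibitor Cst3, 6 sugar-cleaving hydrolases, 5 genes of lipid breakdown and sterol export, 4 membrane glycoproteins, the regulator Tfeb with the channel Mcoln1, and 10 genes of the proton pump. All 38 were in the table, and all 38 passed the filter on low counts that left 12121 genes for testing. The study measured RNA in 46 libraries of microglia from wild-type (WT, 22 libraries) and 5xFAD mice (labelled AD, 24 libraries). Each mouse had 1 of 3 diets, which were zero fiber, control and HAMSAB, a maize starch resistant to digestion that carries acetate and butyrate. Both sexes were used, with 4 libraries for each diet, genotype and sex except zero-fiber WT males, with 2. There were thus 8 libraries for each diet and genotype, and 6 for zero-fiber WT. 5xFAD mice carry mutated human transgenes of familial Alzheimer's disease that are expressed in neurons and form amyloid plaques. The labels give no age, no time on the diet and no isolation method. Nor do they state whether a library stands for 1 mouse, and the p-values here refer to the variation among the deposited libraries.

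Lysosomes are acidic organelles in which a macrophage breaks down what it engulfs. The V-ATPase, a rotary pump with a catalytic part in the cytosol and a part in the membrane, acidifies them, and the acid pH activates the cathepsins and the hydrolases. Cathepsins cut proteins, legumain processes cathepsins and antigens, and cystatin C, the product of Cst3, inhibits cysteine cathepsins. The transcription factor TFEB enters the nucleus when lysosomes are stressed or nutrients are scarce, and binds a palindromic DNA element with the core CACGTG that lies near the start of many lysosomal genes. In brains with amyloid, microglia around plaques are known for high levels of several of these genes, cathepsins and Cd68 among them.

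Total counts per library ran from 52114 to 6950429, with a median of 2344837.5. A pair of zero-fiber AD libraries was treated with caution. In the library labelled female replicate 1, the X-inactivation RNA Xist stood at 0.213 CPM, against 842 to 935 CPM in the other libraries labelled zero-fiber AD female, and the Y-linked Ddx3y at 142 CPM, against 0.637 to 17.9 CPM. Male replicate 2 had the 52114 counts, so that a single read there is a large share of a low gene. Microglial markers (8 of 8 tested) summed to between 24738 and 40397 CPM per library, and neuronal markers to between 4.08 and 36.4 CPM. Markers of perivascular macrophages, another brain macrophage that expresses lysosomal genes, summed to between 161 and 464 CPM. CPM are counts per 1000000 of a library's scaled total.

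The promoters of the members were examined first for the core of the TFEB element. RefSeq windows (GRCm38.p6), from 250 bases before to 50 bases after a transcript start, were matched by symbol for 31 of the 38 members. The core CACGTG, which reads the same on both strands, lay in the windows of 13 of the 31 (41.9%), against 12.1% of the 8533 tested genes and 8.09% of all 27025 genes with a window. The longer palindrome TCACGTGA, which contains the core, lay in 6 of 31 (19.4%), against 2.33% of tested genes. The core with GT before it and AC after it lay in 0 of 31, against 0.867% of tested genes. These shares describe letters in a window, and not binding. The 6 stretches below are those whose surroundings overlap no annotated exon, and they are shown because they span protease, hydrolase, membrane and pump genes. Each is written 5′ to 3′ on the gene's strand, with the core in capitals.
Lgmn, chr12:102439116-102439161 (minus strand, in an intron of the annotated gene): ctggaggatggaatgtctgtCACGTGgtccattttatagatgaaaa
Ctsf, chr19:4855066-4855111 (plus strand, upstream of the gene): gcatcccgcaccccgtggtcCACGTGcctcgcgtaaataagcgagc
Gaa, chr11:119267803-119267848 (plus strand, upstream of the gene): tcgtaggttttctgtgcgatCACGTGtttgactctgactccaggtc
Glb1, chr9:114401010-114401055 (plus strand, upstream of the gene): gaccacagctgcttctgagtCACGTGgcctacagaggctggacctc
Lamp1, chr8:13159080-13159160 (plus strand, upstream of the gene): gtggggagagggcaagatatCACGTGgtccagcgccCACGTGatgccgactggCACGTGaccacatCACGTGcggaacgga
Atp6v1a, chr16:44139365-44139410 (minus strand, in an intron of the annotated gene): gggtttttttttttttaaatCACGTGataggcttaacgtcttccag

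The Lamp1 promoter held 4 copies of the core within 81 bases, the closest with its first base 15 bases before the start. Counted the same way, the core in Glb1 lay 48 bases before the start, that in Ctsf 79 bases and that in Gaa 140 bases. The other 7 members with a core were Ctsa, Ctsd, Ctsl, Gla, Mcoln1, Atp6v0b and Atp6v0d1. Ctss, Lamp2, Cst3 and Tfeb had a window without it.

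The level of the members differed widely between genes. Scaled to exon length, Cst3 led with 29139 CPM per kilobase (mean of all libraries), and it alone held 48.0% of the CPM of the 38 genes. Ctss, the cathepsin of antigen processing, followed with 7358 CPM per kilobase, and Ctsd, the aspartic protease, with 3292. These 3 kept this order in 46 of 46 libraries. Lgmn, Ctsl, Ctsz and Cd68 came next, at 973, 952, 871 and 839.8 CPM per kilobase. Neighbours among these 4 differed by less than 1 SD of the difference over libraries. Ctsb (447) and Hexa (433), the alpha subunit of beta-hexosaminidase, were likewise not apart. At the lower end stood Tfeb at 5.26, Mcoln1, the lysosomal calcium channel, at 5.40, Gla, the alpha-galactosidase, at 1.37 and Atp6v0c, the proteolipid of the pump's ring, at 0.408 CPM per kilobase. Gla had 528 reads and Atp6v0c 111 reads over all libraries, so their fold changes are imprecise. Atp6v0c shares 32.5% of its 50-base stretches with pseudogenes, Cd63 36.5% with Cd63-ps, and Ctsd 36.6% with an overlapping gene model that had 0 reads. How reads of such stretches were counted is not given in the sources used here, so the levels of these 3 are uncertain.

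**Figure D1:**
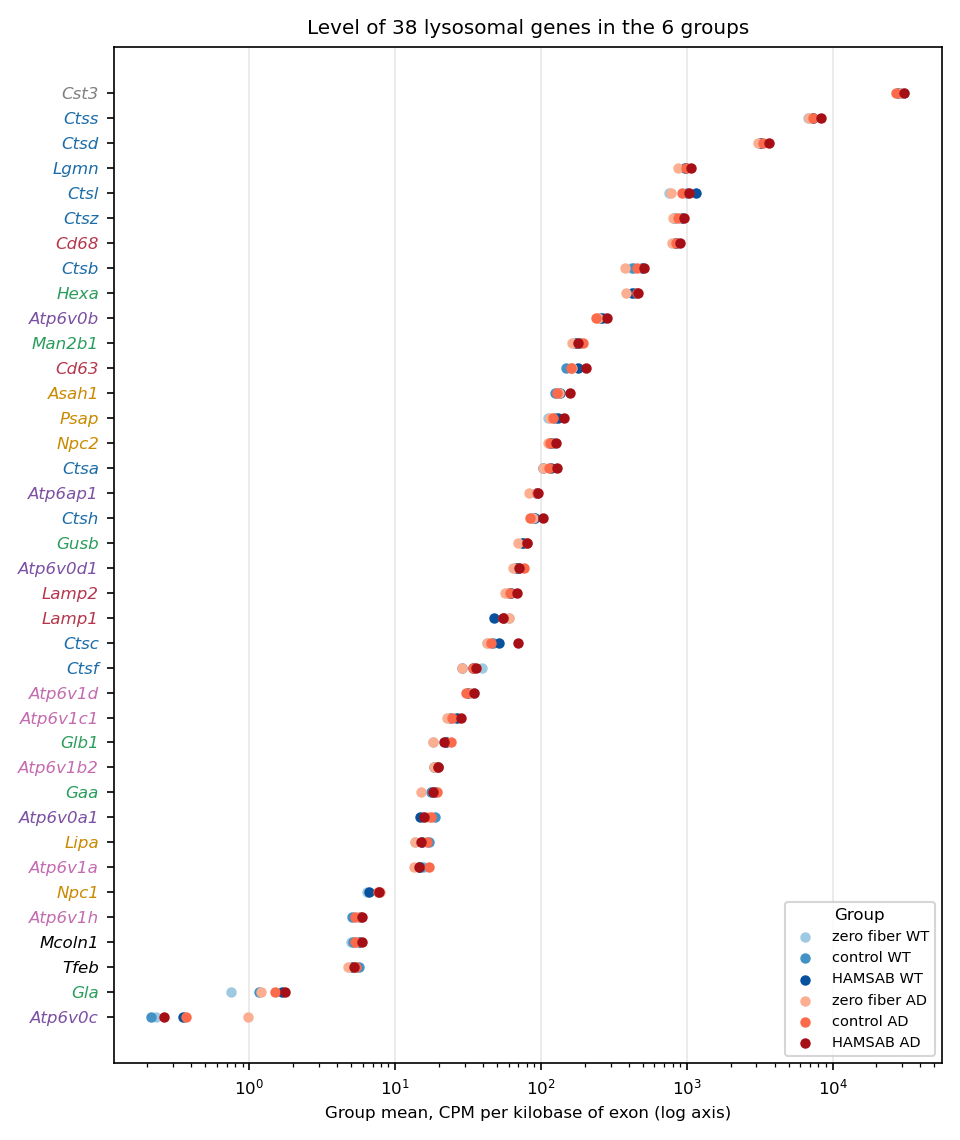
Mean level of each of the 38 genes in the 6 diet and genotype groups, in CPM per kilobase of exon on a log axis, ordered by the mean of all libraries. Gene names are coloured by role, and each point is the mean of 8 libraries (6 for zero-fiber WT). The spread between groups is small beside the spread between genes, except for Gla and Atp6v0c, which had few reads.

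Together the 38 genes took 7.63 ± 0.832% of all counts (SD, n = 46), with a range from 6.08 to 10.2%. The cathepsins and legumain took 3.13% and Cst3 took 3.66%, while the 10 pump genes took 0.104% (membrane part) and 0.0535% (catalytic part). The share was 8.21 ± 1.16% in HAMSAB AD and 7.36 ± 0.759% in zero-fiber AD libraries (SD, n = 8 each), so the groups overlapped.

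HAMSAB was compared with zero fiber in AD mice to ask how the lysosomal program differs between these diets in the disease model. Nearly all members had a higher mean on HAMSAB, but each change was small. The log2 fold change was above 0 for 35 of 38 members, with a median of 0.18, against a median of 0.0041 over the 12121 genes tested. No member was called in the edgeR quasi-likelihood test (Benjamini-Hochberg adjusted p under 0.05 over all genes), where 0.239% of all genes were called. At an unadjusted p under 0.05 there were 15 higher and 0 lower members, against 10.6% of all genes in either direction. DESeq2 called 3 members (Ctsb, Ctss and Lamp2), with 0.429% of all genes called, and limma voom called 4 (Ctsb, Ctss, Gaa and Lamp2), with 0.256%. All 10 cathepsins and legumain were higher, with a median log2 fold change of 0.27. The 6 sugar-cleaving hydrolases had a median of 0.24, the 4 membrane glycoproteins 0.21 and the 5 lipid genes 0.16. The pump genes had medians of 0.11 for the membrane part and 0.10 for the catalytic part, near the 0.10 of Cst3 and the 0.093 of Tfeb and Mcoln1, and 0 of 10 had an unadjusted p under 0.05.

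Among the cathepsins, Ctsb, a cysteine protease (chromosome 14, 63122462 to 63145923, GRCm38), had the smallest p in AD mice. It ran from 2583 to 3682 CPM (median 3117) in HAMSAB AD and from 1579 to 2996 CPM (median 2277) in zero-fiber AD libraries. The ranges overlapped, with 8 of 8 HAMSAB libraries above the zero-fiber median. The means were 3098 ± 377 CPM and 2273 ± 457 CPM (SD, n = 8 each), with log2 fold change 0.44 ± 0.10 SE, edgeR adjusted p = 0.0503. Ctss (chromosome 3, 95526786 to 95556403), which trims the invariant chain of MHC class II, ran from 10626 to 12721 CPM (median 11245) on HAMSAB and from 6319.6 to 11950.0 CPM (median 9423) on zero fiber. All HAMSAB AD libraries were above the zero-fiber median, while the zero-fiber libraries spread more widely and in part reached the HAMSAB range (log2 fold change 0.29 ± 0.08 SE, edgeR adjusted p = 0.124). The lowest zero-fiber value was that of male replicate 2, the library of 52114 counts. Without this library the log2 fold change of Ctss was 0.23. Ctsc (chromosome 7, 88278085 to 88310888), which activates serine proteases of immune cells, had the largest fold change among the members above 0. It ran from 208 to 539 CPM (median 433) on HAMSAB and from 165 to 408 CPM (median 238) on zero fiber (log2 fold change 0.63 ± 0.20 SE, edgeR adjusted p = 0.197). The HAMSAB AD libraries split widely, with some inside the zero-fiber range. Ctsl, a cysteine protease of broad specificity, was at 6736 ± 1100.0 CPM on HAMSAB and 5074 ± 1237 CPM on zero fiber (log2 fold change 0.40 ± 0.15 SE, edgeR adjusted p = 0.316). The remaining 6 lay between 0.16 (Ctsh, an aminopeptidase) and 0.28 (Ctsf) on the log2 scale. Ctsd, with 885426 reads in all, stood at 8576 ± 1578 CPM and 7244 ± 978 CPM, a log2 fold change of 0.23 ± 0.09 (SE). Cst3, the inhibitor of cysteine cathepsins, differed by 0.10 ± 0.14, with 39356 ± 11018 CPM and 36572 ± 7192 CPM, a difference within the spread between libraries.

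**Figure D2:**
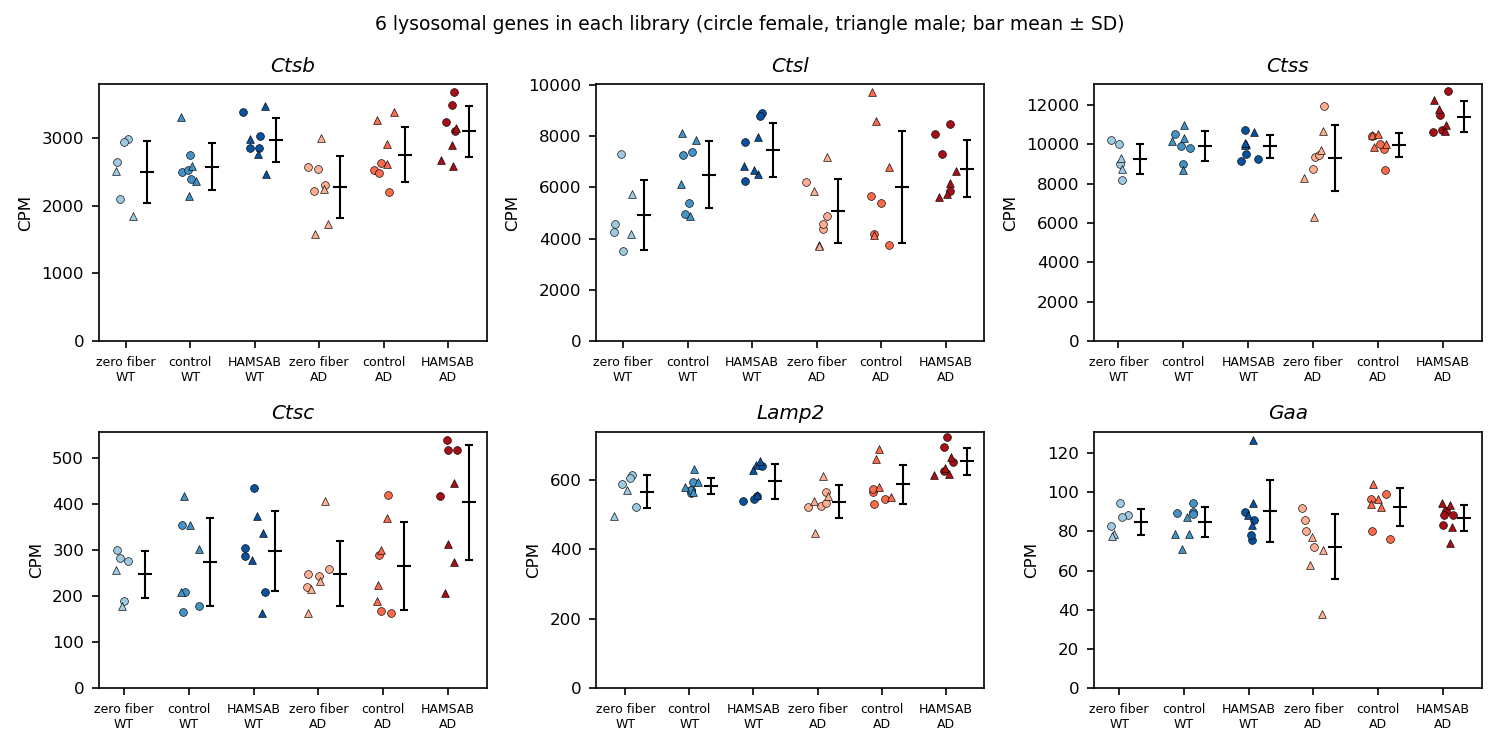
CPM of 6 genes in each of the 46 libraries, by diet and genotype, on linear axes that start at 0 (circles female, triangles male, bars mean ± SD beside the points). The 8 HAMSAB AD libraries of Lamp2 all lie above the zero-fiber AD libraries, while those of the other 5 genes overlap them.

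The membrane glycoprotein Lamp2 (chromosome X, 38401357 to 38456454), a structural protein of the lysosomal membrane needed for fusion with autophagosomes, separated the groups. It ran from 616 to 725 CPM (median 643) in HAMSAB AD and from 446 to 612 CPM (median 537) in zero-fiber AD libraries. Every HAMSAB library was above every zero-fiber library. The groups did not overlap, in either direction, for 0.124% of all genes tested. The means were 654 ± 39.5 CPM and 538 ± 46.9 CPM (log2 fold change 0.28 ± 0.07 SE, edgeR adjusted p = 0.0688). Lamp2 was the steadiest member, with an SD of 0.105 in log2 CPM within groups. Cd63, a tetraspanin, was at 0.31 ± 0.13 (log2 fold change ± SE) and Cd68, a macrophage glycoprotein, at 0.15 ± 0.11. Lamp1, the partner of Lamp2, went the other way without passing the test, at -0.18 ± 0.16 in AD and -0.33 ± 0.17 in WT mice. It stood at 148 ± 29.1 CPM in HAMSAB AD and 162 ± 42.8 CPM in zero-fiber AD libraries. In the fit without the pair of doubted libraries, 34 of 38 members were higher, with a median of 0.16, and 0 were called.

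All 6 sugar-cleaving hydrolases had higher means on HAMSAB in AD mice. Gaa (chromosome 11, 119267887 to 119285454), the acid alpha-glucosidase of glycogen, ran from 74.4 to 94.5 CPM (median 88.4) on HAMSAB and from 37.7 to 92.1 CPM (median 74.6) on zero fiber. The zero-fiber group held a low library at 37.7 CPM, and the ranges overlapped (log2 fold change 0.33 ± 0.10 SE, edgeR adjusted p = 0.143). Hexa stood at 922 ± 99.7 CPM and 768 ± 100.4 CPM, a log2 fold change of 0.25 ± 0.08. Gusb, the beta-glucuronidase, was at 0.19 ± 0.07, Glb1, the beta-galactosidase, at 0.23 ± 0.14 and Man2b1, an alpha-mannosidase, at 0.12 ± 0.09. Of the lipid genes, Psap, the precursor of the saposin activators, stood at 394 ± 41.1 CPM and 317 ± 37 CPM (0.31 ± 0.11). Asah1, the acid ceramidase, was at 0.27 ± 0.11. Npc2, which hands cholesterol on, was at 0.16 ± 0.09, Npc1, the membrane exporter of cholesterol, at 0.11 ± 0.14 and Lipa, the acid lipase, at 0.09 ± 0.10. None of these passed the test. The mean CPM of Npc1 went the other way, at 87.2 ± 28.2 CPM on HAMSAB and 89.8 ± 34.2 CPM on zero fiber. Its highest zero-fiber value, 170 CPM, was in the library of 52114 counts.

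Tfeb itself stood at 29.4 ± 5.41 CPM on HAMSAB and 27.1 ± 8.07 CPM on zero fiber in AD mice (0.02 ± 0.14). The interval of 1 SE spans 0, and with a median of 65.5 reads per library a small change was not detectable. Mcoln1 was at 0.17 ± 0.11. In the membrane part of the pump, Atp6ap1, an accessory subunit, was at 0.17 ± 0.09, Atp6v0b at 0.15 ± 0.12, Atp6v0d1 at 0.11 ± 0.09 and Atp6v0a1 at -0.10 ± 0.11. Atp6v0c was at -0.70 ± 0.73, an interval too wide to give a direction. In the catalytic part, Atp6v1c1 was at 0.24 ± 0.12, and Atp6v1a, the ATP-splitting subunit, at 0.10 ± 0.11. Atp6v1h, Atp6v1b2 and Atp6v1d were at 0.11, 0.06 and 0.01. The 13 members with CACGTG in a window had a median log2 fold change of 0.23, and the 18 with a window without it 0.17. This difference was not tested.

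**Figure D3:**
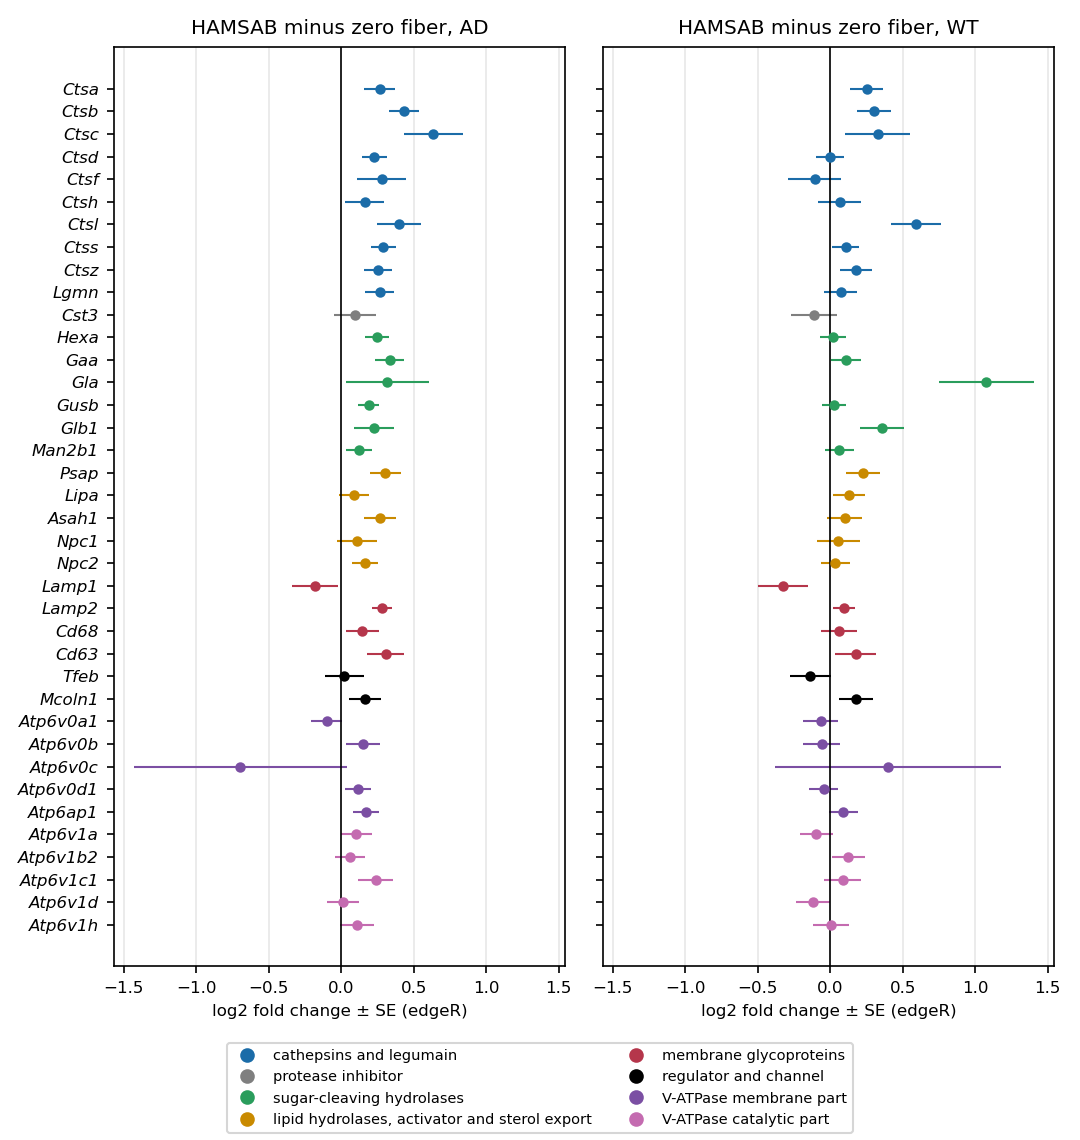
Log2 fold change of HAMSAB over zero fiber, with its SE, for the 38 genes in AD mice (left) and WT mice (right), coloured by role. In AD mice 35 of 38 points lie above 0, and in WT mice 28 of 38, with the cathepsins drawn in the top rows and the pump genes in the bottom rows.

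Other measures moved with this comparison in AD mice. The perivascular macrophage markers were lower on HAMSAB for 8 of 8 tested genes, 4 of them at an unadjusted p under 0.05 and 0 called. Their sum ran from 170 to 223 CPM in HAMSAB AD and from 184 to 464 CPM in zero-fiber AD libraries, with no marker at 0 in either group. Of the 5 tested erythroid and choroid plexus markers, the 4 hemoglobin genes were lower and the choroid plexus gene Ttr was higher, each at an unadjusted p under 0.05 with 0 called. Their sum ran from 97.4 to 329 CPM on HAMSAB and from 124 to 492 CPM on zero fiber. The microglial markers summed to 34147 ± 2931 and 32548 ± 4954 CPM (SD, n = 8 each). Of the 4 tested monocyte and neutrophil markers 3 were lower, 2 of them (S100a8 and Ngp) at an unadjusted p under 0.05 and 0 called. Their sum ran from 5.51 to 15.04 CPM on HAMSAB and from 0 to 26.3 CPM on zero fiber, and Retnlg was at 0 in both groups. The neuronal markers were lower for 4 of 4, 0 of them at an unadjusted p under 0.05, with sums from 9.06 to 36.4 CPM and from 12.6 to 34.5 CPM. Oligodendrocyte markers summed to 130 ± 24 CPM on HAMSAB and 116 ± 27.6 CPM on zero fiber. Endothelial markers (1 of 5 tested) summed to 71.4 ± 29.4 and 54.3 ± 35.3 CPM, and astrocyte markers to 15.8 ± 7.45 and 17.1 ± 8.31 CPM (SD, n = 8 each). The part of these in the result was not tested. In bulk libraries fewer cells of a type and less RNA per cell cannot be told apart. Within title numbers below 2900 (5 and 4 libraries), the median of the members' differences in mean log2 CPM was 0.29, with 0.20 for all genes. Within title numbers of 2900 and above (2 and 4), it was 0.20, with -0.00851 for all genes. The title of 1 HAMSAB AD library has no number of this kind. Without the doubted libraries it was 0.15 in all, with 0.0039 for all genes, and 0.13 below 2900 (5 and 2 libraries), with 0.0045 for all genes. The labels do not call the title numbers a batch. For Lamp2 the differences below and from 2900 were 0.27 and 0.28, and for Ctsb they were 0.51 and 0.39.

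In WT mice the same diets gave a smaller median and fewer members above 0. The log2 fold change was above 0 for 28 of 38 members, with a median of 0.079, against 0.0046 over all genes. edgeR called 0 members and 2.19% of all genes, and at an unadjusted p under 0.05 there were 5 higher and 0 lower members, against 12% of all genes. DESeq2 called 1 (Ctsl, with 2.29% of all genes) and limma voom 2 (Ctsl and Gla, with 2.85%). Ctsl (chromosome 13, 64359337 to 64370890) ran from 6243 to 8915 CPM (median 7298) on HAMSAB and from 3529 to 7304 CPM (median 4408) on zero fiber. The zero-fiber group held 1 library inside the HAMSAB range at the top, and 8 of 8 HAMSAB libraries were above the zero-fiber median. The means were 7465 ± 1045 CPM and 4932 ± 1371 CPM (SD, n = 8 and 6), with log2 fold change 0.59 ± 0.17 SE, edgeR adjusted p = 0.0557. Gla (chromosome X, 134588149 to 134601125), which cleaves galactose from glycolipids, ran from 3.42 to 8.60 CPM (median 5.04) and from 0.517 to 3.80 CPM (median 2.63). These are a few reads per library (log2 fold change 1.08 ± 0.33 SE, edgeR adjusted p = 0.076). Ctsb was at 2972 ± 327 CPM and 2502 ± 458 CPM (log2 fold change 0.30 ± 0.12 SE, edgeR adjusted p = 0.214). Glb1 and Ctsa, the protective protein of beta-galactosidase, were at 0.36 ± 0.15 and 0.25 ± 0.12. Ctsd was at -0.0030 ± 0.097 and Cst3 at -0.11 ± 0.16. The erythroid and choroid plexus markers summed to 153 ± 68.6 CPM on HAMSAB and 416 ± 256 CPM on zero fiber in WT mice, and their part was not tested. Within title numbers below 2900 (5 and 4 libraries), the median of the members' differences in mean log2 CPM was 0.065 with 25 of 38 higher. From 2900 (3 and 2) it was -0.062 with 16 of 38 higher, so the direction of the median did not hold there. Ctsl differed by 0.52 and 0.85 in these subsets, and Ctsb by 0.38 and 0.041. Without zero-fiber WT male replicate 2 the median log2 fold change of the members was 0.043.

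Averaged over both genotypes, the only members called were a pair of cysteine cathepsins, both higher on HAMSAB. Ctsb rose by log2 0.37 ± 0.08 (SE, edgeR adjusted p = 0.00821), with 15 of 16 HAMSAB libraries above the zero-fiber median of their genotype. Ctsl rose by 0.49 ± 0.12 (SE, edgeR adjusted p = 0.0205), with 16 of 16. That is 2 of 38 members, against 1.02% of all genes called. At an unadjusted p under 0.05 there were 16 higher and 1 lower, against 13.3% of all genes, and 32 of 38 were higher with a median of 0.11. DESeq2 (1.28% of all genes) and limma voom (1.46%) each called 5, which were Ctsa, Ctsb, Ctsl, Ctss and Lamp2. Lamp2, at 0.19 ± 0.05, had edgeR adjusted p = 0.0646, Psap, at 0.27 ± 0.08, 0.0898, and Ctsa, at 0.26 ± 0.08, 0.0947. The 1 lower member was Lamp1, at -0.25 ± 0.12 with edgeR adjusted p = 0.319. Without zero-fiber WT male replicate 2, both calls were lost (edgeR adjusted p = 0.0988 for Ctsb and 0.139 for Ctsl). Without zero-fiber AD male replicate 3, 8 members were called. The share of all genes called in that fit is not given here, so this count is not set against a background. With a term for the title series and without the pair of doubted libraries, Ctsl was not called, at 0.46 ± 0.12 (SE, edgeR adjusted p = 0.0631), and Ctsb was.

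Part of the exons of Ctsb and Ctsl overlaps genes on the opposite strand, Fdft1 for Ctsb (15.4% of its 50-base stretches) and the gene model Gm47123 for Ctsl (26.9%). Fdft1 had 450 reads and Gm47123 had 0, against 313204 for Ctsb and 707462 for Ctsl. Ctsl also overlaps the gene model Gm49230 on its own strand. Lamp1 overlaps Grtp1 on the opposite strand (7.11% of its 50-base stretches), with 1341 reads for Grtp1 and 16351 for Lamp1. The strand setting of the counting is not given in the sources used here, so reads of the partners cannot be told apart in those parts.

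The difference between the genotypes in this diet effect was tested as an interaction. The HAMSAB minus zero-fiber difference was larger in AD than in WT mice for 30 of 38 members, with a median of 0.13 on the log2 scale. However, 0 members were called by edgeR, DESeq2 or limma voom and 0 had an unadjusted p under 0.05, where edgeR called 1.08% of all genes and 9.46% had such a p. The 3 smallest p values belonged to Hexa at 0.23 ± 0.12 (SE, edgeR adjusted p = 0.594), Lamp2 at 0.19 ± 0.10 (0.633) and Ctsd at 0.23 ± 0.13 (0.649). A greater effect in AD mice was therefore not shown for any member.

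The control diet was compared with each of the others. The comparisons share libraries, so their values are given side by side and do not support each other. HAMSAB against control in AD mice gave 29 of 38 members above 0, with a median of 0.12 against 0.0054 for all genes. edgeR, DESeq2 and limma voom called 0 members, and edgeR 0.0743% of all genes. There were 8 higher and 1 lower member at an unadjusted p under 0.05, against 15.3% of all genes. Split by sex, the median difference in mean log2 CPM was 0.22 in females, with 30 of 38 members higher, and -0.026 in males, with 17 of 38 higher. Ctsb differed by 0.46 in females and -0.10 in males, and Ctsl by 0.65 and -0.21. All HAMSAB AD males had title numbers below 2900, and most HAMSAB AD females did not. Sex and title series therefore cannot be fully told apart here. Within title numbers below 2900 the median of the members was 0.10 (5 and 4 libraries), and from 2900 it was 0.13 (2 and 4). The difference between the sexes was not tested. Ctss ran from 10626 to 12721 CPM (median 11245) on HAMSAB and from 8687 to 10532 CPM (median 10037) on control. The groups did not overlap, as was so for 0.116% of all genes (log2 fold change 0.19 ± 0.08 SE, edgeR adjusted p = 0.251). The smallest p values belonged to Ctsc (log2 fold change 0.57 ± 0.20 SE, edgeR adjusted p = 0.155), Asah1 (log2 fold change 0.29 ± 0.11 SE, edgeR adjusted p = 0.189) and Cd63 (log2 fold change 0.33 ± 0.13 SE, edgeR adjusted p = 0.189). Asah1 was at 536 ± 82.9 CPM on HAMSAB and 439 ± 80.8 CPM on control, and Cd63 at 755 ± 170.2 CPM and 596 ± 83.3 CPM. The 1 lower member was Atp6v1a at -0.22 ± 0.10. All 8 tested perivascular macrophage markers were lower on HAMSAB here at an unadjusted p under 0.05, with 0 called. Their sum ran from 169 to 402 CPM on control, and its part in the result was not tested.

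Zero fiber against control in AD mice gave lower means for 29 of 38 members, with a median of -0.096 against -0.0076 for all genes. edgeR and limma voom called 0 members and DESeq2 called 1, with 0.0578% of all genes called by edgeR and 0.132% by DESeq2. At an unadjusted p under 0.05 there were 0 higher and 9 lower members, against 10.8% of all genes. Of the sugar-cleaving hydrolases 6 of 6 were lower, 5 of them at an unadjusted p under 0.05, with a median of -0.24. Gaa, the member called by DESeq2, ran from 76.2 to 104 CPM (median 95.5) on control and from 37.7 to 92.1 CPM (median 74.6) on zero fiber. Of the zero-fiber libraries, 8 of 8 were below the control median (log2 fold change -0.42 ± 0.10 SE, edgeR adjusted p = 0.0762). Atp6v1a had 81.5 ± 5.75 CPM in the zero-fiber group against 103 ± 22.7 CPM in the control group (log2 fold change -0.33 ± 0.11 SE, edgeR adjusted p = 0.213). Hexa stood at 768 ± 100.4 CPM and 913 ± 73.6 CPM (log2 fold change -0.24 ± 0.08 SE, edgeR adjusted p = 0.251). The difference in mean log2 CPM of Gaa was -0.68 in males and -0.090 in females, and the median of the members was -0.28 and -0.017. The median of all genes was -0.19 and -0.0060 in the same groups, and the males include the library of 52114 counts. Without the doubted libraries the Gaa difference was -0.42, against -0.39 in all libraries. Without zero-fiber AD male replicate 4 the log2 fold change of Gaa was -0.30. Most zero-fiber AD males had title numbers below 2900 and most females did not, so sex and title series cannot be fully told apart. The difference between the sexes was not tested. In the fit without the doubted libraries 13 of 38 members were higher, with a median of -0.051.

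In WT mice the comparisons with the control diet gave few members past even the unadjusted threshold. HAMSAB against control had 21 of 38 above 0 (median 0.023), with 0 called by edgeR (0.281% of all genes), DESeq2 or limma voom. There were 3 higher and 1 lower member at an unadjusted p under 0.05, against 13.3% of all genes. Without HAMSAB WT female replicate 4 the median was -0.0011. The smallest p belonged to Atp6v0a1, the membrane subunit that couples rotation to proton flow, at 97.2 ± 16.4 CPM on HAMSAB and 122 ± 12.9 CPM on control (log2 fold change -0.34 ± 0.11 SE, edgeR adjusted p = 0.135). Gla was at 0.65 ± 0.28 and Cd63 at 0.28 ± 0.13. Zero fiber against control had 12 of 38 above 0 (median -0.035), with 0 called by edgeR (0.00825% of all genes), DESeq2 or limma voom. There were 0 higher and 4 lower at an unadjusted p under 0.05, against 7.58% of all genes. Lipa had 93.0 ± 10.5 CPM in the zero-fiber group against 115 ± 11.9 CPM in the control group (log2 fold change -0.28 ± 0.11 SE, edgeR adjusted p = 0.508). Glb1 was at -0.37 ± 0.15 and Ctsl at -0.39 ± 0.17. The median difference in mean log2 CPM of the members was 0.041 in females and -0.15 in males (2 zero-fiber libraries). It was 0.034 within title numbers below 2900 (4 and 1 libraries) and 0.080 from 2900 (2 and 7), so the lower median did not hold there. The zero-fiber WT males all had title numbers below 2900, and the control WT males all had 2900 or above. The male difference therefore cannot be told apart from the title series. The AD and WT differences were also compared with each other. For HAMSAB against control, edgeR called 0% of all genes and 0 members, and 0 members had an unadjusted p under 0.05, against 5.53% of all genes. For zero fiber against control it again called 0% of all genes and 0 members. Here 3 members were lower at an unadjusted p under 0.05, against 6.17% of all genes, which were Gaa at -0.40 ± 0.14 (edgeR adjusted p = 0.526), Atp6v1a at -0.38 ± 0.16 (0.661) and Ctsf at -0.57 ± 0.25 (0.709). DESeq2 and limma voom called 0 in both.

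The genotypes were compared on each diet, to ask whether 5xFAD microglia differed in lysosomal genes. No member was called on any diet by edgeR, DESeq2 or limma voom. On control, where edgeR called 0% of all genes, 24 of 38 members were above 0 (AD minus WT, median 0.052). There were 0 members at an unadjusted p under 0.05, against 5.4% of all genes. Ctsd stood at 7894 ± 306 CPM in AD and 7505 ± 1050.5 CPM in WT mice, Ctsb at 2748 ± 405 CPM and 2571 ± 347 CPM, and Cd68 at 1054 ± 168 CPM and 1039 ± 109 CPM. The ranges of AD and WT libraries overlapped for these 3. The smallest p values were those of Atp6v1a (log2 fold change 0.18 ± 0.10 SE, edgeR adjusted p = 0.949), Gla (0.45) and Gusb (0.11). On zero fiber (0.00825% of all genes called), 18 of 38 were above 0, with 1 higher (Gla, 0.82 ± 0.35) and 1 lower (Gaa, -0.27 ± 0.11) at an unadjusted p under 0.05, against 4.7%. Atp6v1a followed at -0.20 ± 0.12. On HAMSAB (1.68% of all genes called), 32 of 38 were above 0, with a median of 0.096. There were 3 higher at an unadjusted p under 0.05, against 12%, which were Ctss (log2 fold change 0.20 ± 0.08 SE, edgeR adjusted p = 0.26), Ctsd (0.18 ± 0.09) and Asah1 (0.22 ± 0.11). Over all diets 31 of 38 were above 0, with a median of 0.036 and 0.0165% of all genes called. Only Gla (0.44 ± 0.17) had an unadjusted p under 0.05, against 7.28% of all genes, and Ctsa and Cd63 came next at 0.12 ± 0.06 and 0.13 ± 0.08.

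Between the sexes, averaged over the diets and genotypes, 13 of 38 members were higher and 25 lower in males, with a median of -0.050. edgeR, DESeq2 and limma voom called 0, and edgeR 0.124% of all genes. Ctsd (log2 fold change -0.17 ± 0.05 SE, edgeR adjusted p = 0.192), Glb1 (log2 fold change -0.21 ± 0.08 SE, edgeR adjusted p = 0.319) and Atp6ap1 (log2 fold change -0.11 ± 0.05 SE, edgeR adjusted p = 0.459) were lower in males at an unadjusted p under 0.05, as 10.5% of all genes were in either direction. The library labelled zero-fiber AD female replicate 1 enters this comparison as female.

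The other genes of the lysosome came from lists of 93 genes, of which 85 were tested. For HAMSAB against zero fiber in AD mice, 60 of 85 were above 0, with 12 higher and 3 lower at an unadjusted p under 0.05 (10.6% of all genes), 0 called by edgeR and a median of 0.087. The 12 tested other pump subunits had a median of 0.096, with 9 above 0. Averaged over both genotypes, 55 of 85 were above 0 and 0 were called. In WT mice 3 of the 85 were called, all higher on HAMSAB, against 2.19% of all genes called, so the count is near the background. Gm2a, the activator of ganglioside breakdown, was at 792 ± 154 CPM on HAMSAB and 385 ± 116 CPM on zero fiber (log2 fold change 1.10 ± 0.24 SE, edgeR adjusted p = 0.00907). Rraga, a GTPase that brings the growth kinase mTORC1 to the lysosome, was at 328 ± 64.1 CPM and 143 ± 45.8 CPM (log2 fold change 1.34 ± 0.26 SE, edgeR adjusted p = 0.00362). Fnip2, a partner of folliculin in the same pathway, was at 63.5 ± 13.2 CPM and 34.4 ± 11.6 CPM (log2 fold change 0.92 ± 0.24 SE, edgeR adjusted p = 0.0261). In AD mice the fold changes were 0.01 ± 0.21, -0.25 ± 0.22 and -0.79 ± 0.22. The difference between the genotypes, where 1.08% of all genes were called, passed the test for Rraga (log2 fold change -1.59 ± 0.34 SE, edgeR adjusted p = 0.00939) and Fnip2 (log2 fold change -1.71 ± 0.32 SE, edgeR adjusted p = 0.00437). Both were higher on HAMSAB in WT mice, while in AD mice their fold changes were below 0. On HAMSAB, AD mice had less of all 3 than WT mice, with log2 -0.95 ± 0.22 for Rraga, -1.04 ± 0.21 for Fnip2 and -0.77 ± 0.21 for Gm2a (edgeR adjusted p = 0.0118, 0.00416 and 0.0388). In that comparison 1.68% of all genes were called. These genes were picked by the WT diet comparison, and all of these comparisons share the HAMSAB WT libraries, so they do not support each other.

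The members also varied between libraries of 1 group. After Lamp2, the steadiest were Gusb (SD of 0.12 in log2 CPM within groups), Hexa (0.146) and Ctss (0.149). Ctsc (0.44) and Ctsf (0.365) varied most apart from Gla and Atp6v0c. Their spread was as large as or larger than most diet differences described above. Cst3, the most abundant member, had 0.314.

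**Figure D4:**
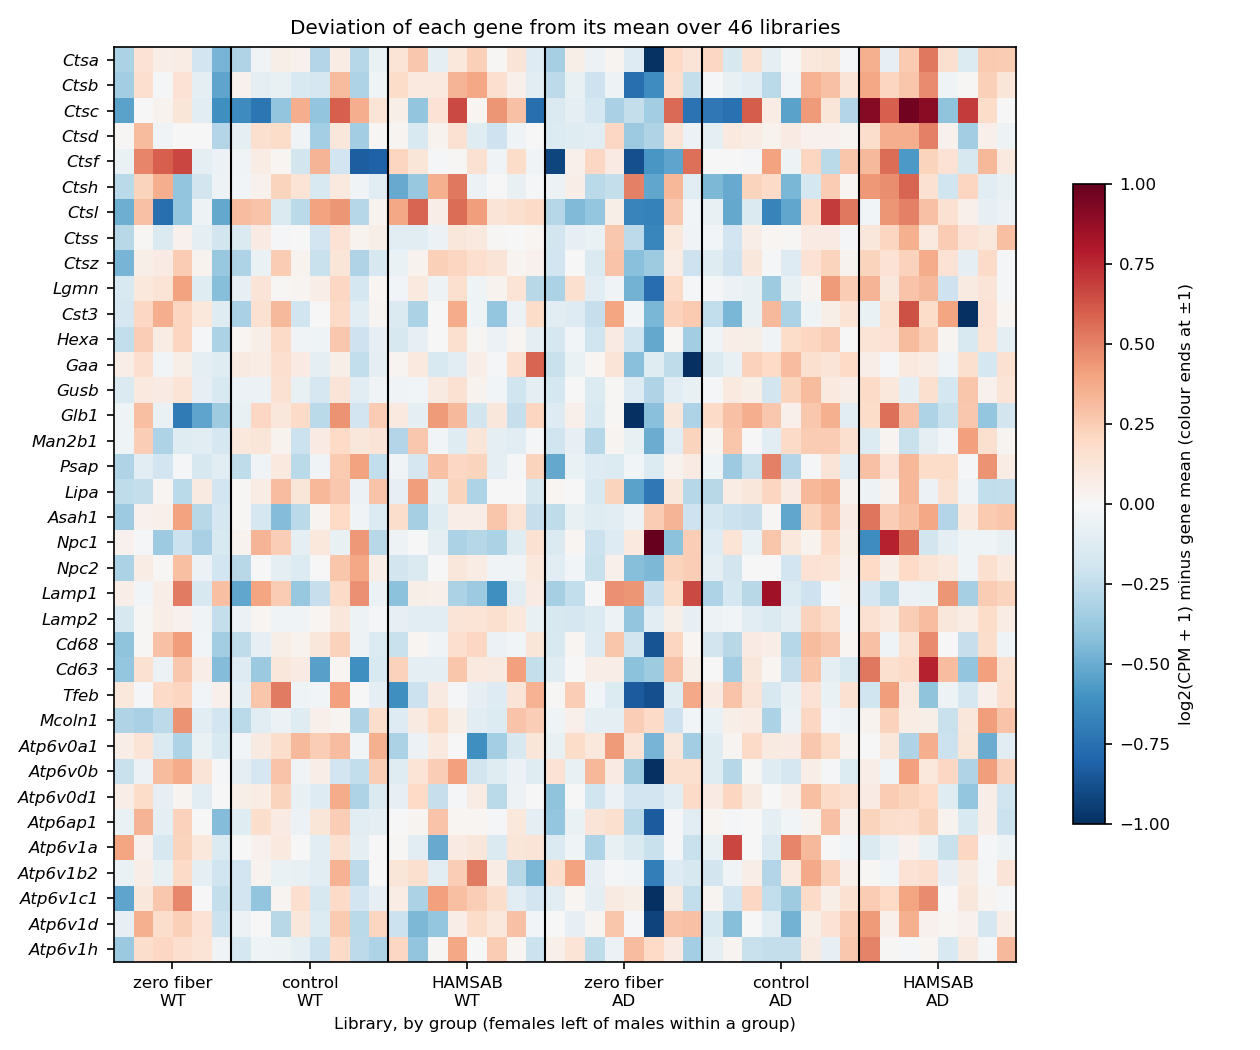
Deviation of 36 members from their mean over 46 libraries, in log2(CPM + 1), with libraries grouped by diet and genotype and females to the left in each group (Gla and Atp6v0c, with few reads, are left out). HAMSAB AD libraries are mostly above the mean and zero-fiber AD libraries mostly below it, with exceptions such as Npc1 and Lamp1. The library of 52114 counts is the zero-fiber AD column with the most dark blue fields.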

How the data were processed

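Per the labels' protocols, microglial RNA was purified on RNeasy Micro columns before Illumina library preparation. The authors deposited raw read counts per gene symbol, 1 column per library. Per the submitters' processing notes, the tools were STAR 2.5.2b and featureCounts 1.5.2 and the build GRCm38 (mm10). Not given in the sources used here are the strand setting, the annotation release and how reads with several matches were handled.

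The counts were fitted with edgeR 4.0.16 (R 4.3.3, filterByExpr, TMM factors from 0.918 to 1.25, quasi-likelihood F test), with a mean for each of 12 diet, genotype and sex groups over all 46 libraries. In 15 comparisons the sexes had equal weight. Genes were called at a Benjamini-Hochberg adjusted p under 0.05 over 12121 genes. Exon lengths and coordinates are from GENCODE M21. Alternatives were DESeq2 1.42.0, limma 3.58.1 (voom with quality weights), other size factors, no filter, a title series term, fewer libraries and a removed length trend.

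The members and lists were chosen with earlier results of these data known. Members called, or else the 3 of smallest p, are given with full statistics, and called genes of the other lists up to 4 per comparison. No pair of libraries held identical counts (lowest chi-square per degree of freedom 1.62).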

Additional observations from a re-analysis of the deposited data

Results flagged for a closer look

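In 228 checks of a member within a diet and genotype group, 18 had a highest or lowest library far from the others, where chance gives about 1 in 20. In zero-fiber AD male replicate 3, Ctsc was the highest at 408 CPM (nearest other library 259 CPM). In control AD female replicate 1, Ctsd was the lowest at 7225 CPM (nearest other library 7808 CPM). In control AD female replicate 2, Ctss was the lowest at 8687 CPM (nearest other library 9738 CPM). In HAMSAB WT male replicate 4, Gaa was the highest at 126 CPM (nearest other library 94.8 CPM). In control WT male replicate 2, Gla was the highest at 9.97 CPM (nearest other library 3.78 CPM), Lamp2 was the highest at 633 CPM (nearest other library 594 CPM) and Atp6v1b2 was the highest at 128 CPM (nearest other library 103 CPM). In control WT female replicate 4, Man2b1 was the lowest at 1219.7 CPM (nearest other library 1449 CPM). In zero-fiber AD female replicate 1, Psap was the lowest at 238 CPM (nearest other library 309 CPM). In zero-fiber AD male replicate 2, Npc1 was the highest at 170.0 CPM (nearest other library 97.1 CPM), Atp6v0c was the highest at 15.5 CPM (nearest other library 4.93 CPM), Atp6v1c1 was the lowest at 61.8 CPM (nearest other library 117 CPM) and Atp6v1d was the lowest at 77.3 CPM (nearest other library 139 CPM). In control AD female replicate 4, Lamp1 was the highest at 261 CPM (nearest other library 148 CPM) and Atp6v0c was the highest at 4.81 CPM (nearest other library 1.97 CPM). In zero-fiber WT female replicate 4, Mcoln1 was the highest at 55.7 CPM (nearest other library 37.6 CPM). In HAMSAB WT female replicate 3, Atp6v0c was the highest at 5.12 CPM (nearest other library 1.13 CPM). In control AD male replicate 3, Atp6ap1 was the highest at 339 CPM (nearest other library 286 CPM). Zero-fiber AD male replicate 2 has the lowest depth, so its values rest on few reads. The sex genes of zero-fiber AD female replicate 1 go against its label. Sex genes are given here only for the libraries labelled zero-fiber AD female. No explanation of these values was tested.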

How the results depend on the processing

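The title series term, the fit without the 2 doubted libraries and the length trend changed no count of called members. The length trend, and the title series term together with the doubted libraries left out, were chosen after seeing the data. The 3 members of smallest p in each of the 15 comparisons gave 45 fold changes, and all kept their direction under every alternative run. These were picked by p in the same data, and the other fold changes named above were not followed in this way. The median log2 fold change of the members kept its sign under every alternative for 11 comparisons and changed it for 4. For AD against WT on zero fiber (-0.0047) it ran from -0.069 to 0.039, for zero fiber against control, AD minus WT difference (-0.026), from -0.078 to 0.015. For HAMSAB against control it fell to -0.0011 in WT (0.023) and to -0.00086 for the AD minus WT difference (0.039) with 1 library left out. For zero fiber against control in AD (-0.096) leaving out 1 library gave -0.14 to -0.053. For HAMSAB against zero fiber in AD mice (0 called), no filter called 3, DESeq2 3 and limma voom 4. In WT mice (0), DESeq2 size factors, no filter, the DESeq2 test and a fit of only the libraries compared each called 1, and limma voom 2. Over both genotypes (2), DESeq2 and limma voom called 5 each. The title series term without the doubted libraries called 1, as Ctsl had edgeR adjusted p = 0.0631 there, with 4.87e-07 to 0.0631 over the alternatives other than leaving out 1 library, which gave 0.0040 to 0.139. For HAMSAB against control in AD and for AD against WT on HAMSAB (0 each), no filter called 1. For zero fiber against control in AD (0), DESeq2 called 1. The cause of these changes was not tested. Shares of all genes called are given only for the main edgeR fit, the DESeq2 test and limma voom. The member counts of the other fits are therefore not set against a background. With no filter, the adjustment also ran over more genes than the 12121. Leaving out 1 library gave 0 to 4 calls for HAMSAB against zero fiber in AD, 0 to 2 in WT and 0 to 8 over both genotypes. It gave 0 to 1 for zero fiber against control in AD and for HAMSAB against control in WT, and 0 in the others. For these fits too, the share of all genes called is not given here. The most calls in AD came without zero-fiber AD male replicate 3, and in WT without zero-fiber WT female replicate 2 or HAMSAB WT female replicate 3. No paired analysis was possible because the replicate numbers follow accession order and pair no libraries. Depth limits Gla and Atp6v0c, with 528 and 111 reads in all.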
